A study of Mus musculus with 65 samples.

Results

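The transcripts described here are 7 genes of mast cells and basophils, Hdc, Cpa3, Il1rl1, Ms4a2, Fcer1a, Kit and Gata2, chosen by symbol from a gene table of 23755 genes. All 7 have a row in that table. They were followed in 47 libraries of mouse bone marrow derived dendritic cells (BMDC, cells grown out of bone marrow in culture) of the C57BL/6 strain, and for comparison in 18 libraries of RAW264.7, a mouse macrophage line, out of 65 libraries in all. The question was whether a change after lipopolysaccharide (LPS, a cell wall component of Gram-negative bacteria sensed by TLR4) was a response to LPS or followed the amount of mast cell and basophil transcripts in each culture.

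In the stimulation experiment, 35 BMDC libraries were taken at 0, 2 and 4 h of LPS at 100 ng/mL. MyD88KO cells, which lack the adaptor of most Toll-like receptors, had 3 libraries at each time. Cells labelled TrifKO, for the adaptor of the other TLR4 branch encoded by Ticam1, also had 3 at each time. Wild-type (WT) cells had 6 libraries at 0 h, 5 at 2 h and 6 at 4 h. All of these cells were WT for Suv39h1 and Ifnar. In a separate unstimulated experiment, Suv39h1KO IfnarKO, Suv39h1KO, IfnarKO and WT cells had 3 libraries each, all WT for MyD88 and Trif. Suv39h1 is a histone H3K9 methyltransferase and Ifnar the type I interferon receptor. RAW264.7 cells carried guide 1, guide 2 or a control guide, with 3 libraries each at 0 and 2 h of LPS. The targets of the guides, the knockout alleles and the growth factors of the cultures were not given in the sources used here. WT titles of the stimulation experiment carried library numbers in a low and a high range, called the low and high set here, and each range repeated cohort numbers 1 to 3. All MyD88KO libraries fell in the low set and all libraries labelled TrifKO in the high set, so set and genotype cannot be told apart for the knockouts.

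Mast cells and basophils are rare granulocytes that bind IgE and release histamine. Hdc encodes histidine decarboxylase, the enzyme that makes histamine, and it is also known to be induced by LPS in macrophages. Cpa3 encodes mast cell carboxypeptidase A, stored in granules. Fcer1a and Ms4a2 encode the alpha and beta chains of the high-affinity IgE receptor, Il1rl1 encodes ST2, the receptor for IL-33, and Kit the receptor for stem cell factor. Gata2 is a transcription factor of blood progenitors that is required for mast cells and basophils and binds GATA motifs.

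The genes lie at the following places in GRCm38 (mm10), per GENCODE, and all are annotated as protein-coding. Hdc spans chr2:126593667-126619299 and Cpa3 chr3:20215620-20242181, both on the minus strand. Il1rl1 spans chr1:40429570-40465415 on the plus strand. Ms4a2 spans chr19:11615523-11623719 and Fcer1a chr1:173221284-173227214, both on the minus strand. Kit spans chr5:75574916-75656722 and Gata2 chr6:88193891-88207032, both on the plus strand. Cpa3 shares its strand and part of its span with the microRNA gene Mir7007, so reads there cannot be assigned with certainty.

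RefSeq promoters (GRCm38.p6, 250 bases before to 50 after a gene's start) were searched on both strands for AGATAA, for its variant AGATAG, for TGATAA and for its variant TGATAG, with no overlap between matches in these genes. A match was found in 6 of the 10 promoters listed for the 7 genes (60%), against 29.8% of all 32851 promoters, and the 6 belong to 5 genes. Hdc and Cpa3 held 1 match each, the first Il1rl1 promoter held 5, Ms4a2 held 3 and Fcer1a held 1, while none of these letters was found in the windows of Kit and Gata2. The promoters of the 3 genes on which the results turn are printed 5′ to 3′ on the strand of the gene, with the matches in capitals. They lie at chr2:126618629-126618928 (minus), chr3:20242132-20242431 (minus) and chr1:40429320-40429619 (plus). A match is only a description of the letters.
Hdc: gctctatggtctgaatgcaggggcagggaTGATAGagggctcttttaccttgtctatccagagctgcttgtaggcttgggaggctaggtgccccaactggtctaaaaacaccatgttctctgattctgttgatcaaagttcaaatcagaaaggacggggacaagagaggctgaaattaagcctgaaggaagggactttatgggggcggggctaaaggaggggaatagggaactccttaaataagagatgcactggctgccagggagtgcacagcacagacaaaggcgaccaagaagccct
Cpa3: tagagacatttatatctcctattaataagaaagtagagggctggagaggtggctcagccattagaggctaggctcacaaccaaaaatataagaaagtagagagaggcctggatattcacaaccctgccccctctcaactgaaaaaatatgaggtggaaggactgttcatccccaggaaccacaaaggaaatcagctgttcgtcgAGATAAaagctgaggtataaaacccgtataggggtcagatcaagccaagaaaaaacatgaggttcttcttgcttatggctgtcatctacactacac
Il1rl1: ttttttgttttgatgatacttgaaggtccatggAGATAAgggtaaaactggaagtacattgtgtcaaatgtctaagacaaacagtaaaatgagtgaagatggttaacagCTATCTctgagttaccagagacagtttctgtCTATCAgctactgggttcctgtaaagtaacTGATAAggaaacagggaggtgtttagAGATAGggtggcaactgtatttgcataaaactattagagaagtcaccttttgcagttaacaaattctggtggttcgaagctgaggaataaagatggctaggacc

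Library totals ran from 41.5 to 95.3 M reads in BMDC and from 36.9 to 77.0 M reads in RAW264.7. Suv39h1 stood at 0.110 to 0.371 CPM (read counts scaled to library size) in the 6 Suv39h1KO libraries, against 36.9 to 64.6 CPM in the other 6 libraries of that experiment. Ifnar1 stood at 122 to 161 CPM in IfnarKO cells, against 173 to 218 CPM in cells with the receptor. Myd88 stood at 46.2 to 115 CPM in MyD88KO cells, against 68.3 to 461 CPM in the other libraries, and which exons were deleted was not given. Ticam1 stood at 2.94 CPM at 2 h and 2.46 CPM at 4 h in the libraries labelled TrifKO replicate 3. It stood at 29.8 to 50.3 CPM in the other 7 libraries labelled TrifKO, within the 25.02 to 58.4 CPM of WT. Whether the knockout allele leaves this transcript in place was not given, so its level cannot settle the label of those 7. The 9 libraries under this label did not share 1 level of Ticam1. The fits below keep them together as labelled unless stated, so their TrifKO values may not describe 1 genotype. Xist, the RNA of the inactive X chromosome of females, stood at 1010 CPM in the library labelled TrifKO replicate 3 at 0 h, then at 0.0204 CPM at 2 h and 0 at 4 h. Replicate 1 had 0, 0 and 1233 CPM at 0, 2 and 4 h and replicate 2 had 1091, 1203 and 0.0378 CPM, so no TrifKO replicate number kept its Xist level over the 3 times. In WT and MyD88KO libraries Xist stood at 457 to 1372 CPM in cohorts 1 and 2 and at most 0.0584 CPM in cohort 3. Sex and cohort 3 thus cannot be told apart in these libraries. For the dendritic label, Cd74 stood at 6409 to 14152 CPM, Itgax at 323 to 997 CPM, Zbtb46 at 20.7 to 74.0 CPM and Flt3 at 4.07 to 26.7 CPM in all 47 BMDC libraries, against 81.8 to 186, 10.7 to 124, 0.382 to 2.12 and at most 0.0394 CPM in RAW264.7.

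Per kilobase of exon, so that levels of different genes can be compared, WT cells after 4 h of LPS had Hdc at 14.9 ± 5.94, Cpa3 at 5.57 ± 6.76, Gata2 at 5.41 ± 2.35, Kit at 3.86 ± 1.76 and Il1rl1 at 0.334 ± 0.223 CPM per kb (SD, n = 6). In unstimulated WT cells the levels on the same scale were Kit at 4.94 ± 1.62, Cpa3 at 3.61 ± 3.86, Gata2 at 3.49 ± 1.08, Il1rl1 at 2.77 ± 1.13 and Hdc at 0.597 ± 0.341 CPM per kb (SD, n = 6). By its mean, Hdc was first of these 5 with LPS and last without it, and Il1rl1 was last with LPS. The mean ± SD of Cpa3 overlapped that of each of the other 4 at both times, so its place in the order is not resolved, and those of Gata2 and Kit overlapped each other at both times. Ms4a2 and Fcer1a were far lower, at 0.0651 ± 0.0462 and 0.0722 ± 0.0862 CPM per kb after 4 h, against 0.0340 ± 0.0274 and 0.0188 ± 0.0183 CPM per kb at 0 h.

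Of the 7 genes, 6 had enough reads to be tested in the stimulation experiment; Fcer1a did not. In WT cells Hdc and Gata2 rose and Il1rl1 fell after 4 h of LPS, and Cpa3, Kit and Ms4a2 did not pass the test (edgeR quasi-likelihood, Benjamini-Hochberg adjusted p below 0.05 over all genes). That is 3 of 6 members where 65.1% of the 14475 genes tested were called. After 2 h, Hdc rose and Il1rl1 fell, 2 of 6 with 45.9% of all genes called. Between 4 h and 2 h the same 2 genes were called, Hdc higher and Il1rl1 lower, with 35.8% of all genes called. The shares of members called were near or below those of all genes, so the count itself does not set these genes apart.

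Hdc was the member with the largest rise in WT cells. It stood at 2.18 CPM in the lowest, 2.96 in the median and 7.79 in the highest of 6 WT libraries at 0 h. At 2 h the 5 WT libraries had 19.7, 21.04, 23.8, 24.3 and 25.02 CPM, and at 4 h the lowest had 34.7, the median 105 and the highest 138 CPM. The WT groups at the 3 times did not overlap. The fitted log2 fold change was 2.58 ± 0.38 (SE) at 2 h over 0 h (adjusted p = 1.75e-06) and 4.65 ± 0.40 at 4 h over 0 h (adjusted p = 3.22e-11), a 25.1-fold difference with a 95% interval of 3.83 to 5.47 on the log2 scale. From 2 to 4 h it rose by a further 2.07 ± 0.38 (adjusted p = 9.08e-05). In bulk RNA, more cells of a type and more RNA per cell cannot be told apart from such levels alone. Matching WT libraries of the same set and cohort number gave 4 h over 0 h ratios of 14.2 to 49.2, above 1 in 6 of 6, and 2 h over 0 h ratios of 3.12 to 11.3, above 1 in 5 of 5.

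**Figure D1:**
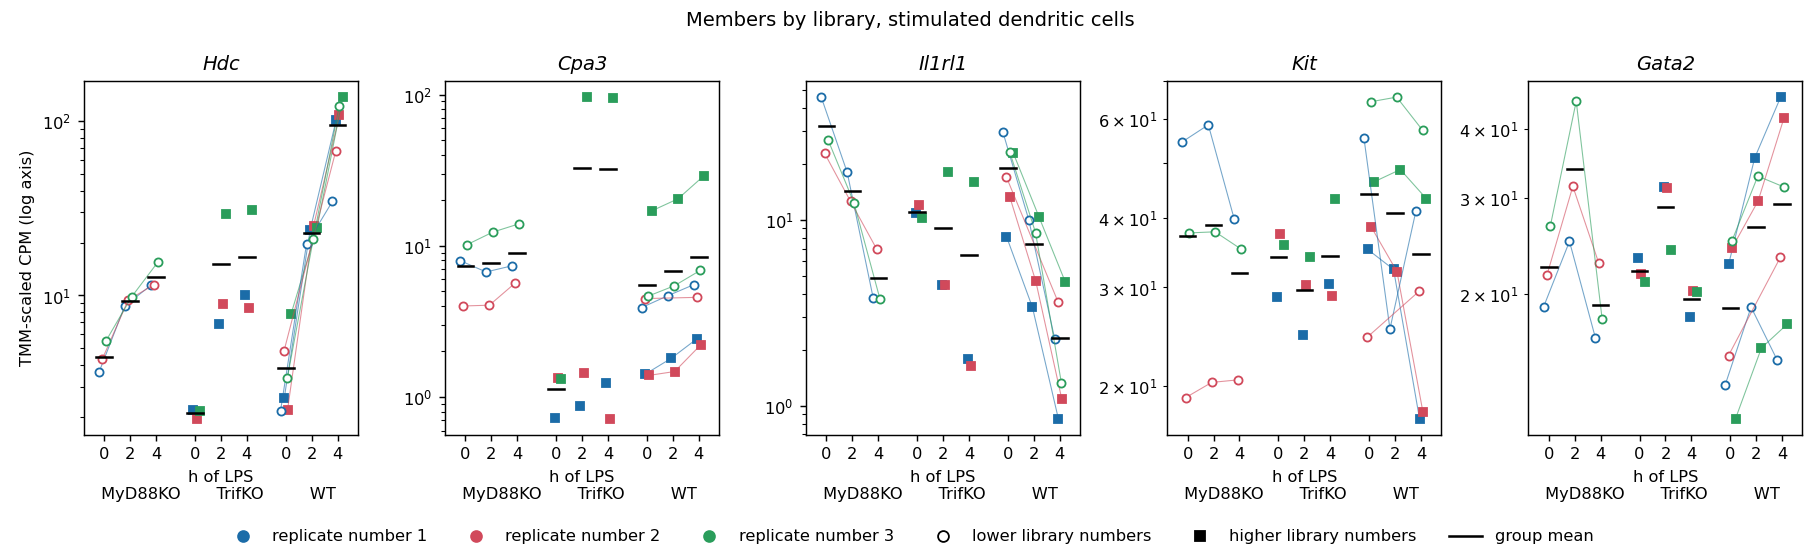
TMM-scaled CPM (log axis) of Hdc, Cpa3, Il1rl1, Kit and Gata2 in the 35 BMDC libraries of the stimulation experiment, by labelled genotype and hours of LPS; colour gives the cohort number, open circles the low set, squares the high set, bars the group mean, and lines join matched MyD88KO or WT libraries. Hdc climbs in every WT line to between 34.7 and 138 CPM at 4 h and Il1rl1 descends, while each WT line of Cpa3 stays within 1.72-fold and the lines lie up to 13.9-fold apart.

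In MyD88KO cells Hdc stood at 3.62, 4.32 and 5.45 CPM before LPS. After 2 h the 3 libraries had 8.74, 9.43 and 9.83 CPM, and after 4 h 11.4, 11.6 and 15.5 CPM. Every MyD88KO library at 4 h was above every one at 0 h and below every WT library at 4 h. Its log2 fold change was 1.06 ± 0.50 at 2 h over 0 h (adjusted p = 0.161) and 1.52 ± 0.50 at 4 h over 0 h (adjusted p = 0.0198). The rise at 2 h passed the test once matched libraries were blocked (1.08, adjusted p = 0.0248). The call at 4 h was lost without replicate 1 at 0 h (1.42, adjusted p = 0.0678), replicate 2 at 0 h (1.53, adjusted p = 0.0516) or replicate 3 at 4 h (1.36, adjusted p = 0.0699). Of the 6 members tested, edgeR called none in MyD88KO cells at 2 h (1 at an unadjusted p under 0.05, 0 by DESeq2), with 16.1% of all genes called, and Hdc and Il1rl1 were called at 4 h, with 34.1%.

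The difference between the responses was tested directly. The 4 h response of Hdc was smaller in MyD88KO than in WT cells by 3.13 ± 0.62 on the log2 scale, the only member called there (log2 difference -3.13, 95% interval -4.40 to -1.86, adjusted p = 0.00253), with 6.86% of all genes called. With low-set WT libraries alone, the set that all MyD88KO libraries share, the difference was -2.91 and its adjusted p 0.0567. At 2 h the difference was -1.52 ± 0.62 (adjusted p = 0.414), or -1.63 with matched libraries blocked (adjusted p = 0.0483), and edgeR called no member (1 at an unadjusted p under 0.05, 0 by DESeq2), with 0.442% of all genes called. At 0 h Hdc differed by 0.23 ± 0.43 between MyD88KO and WT cells (95% interval -0.65 to 1.11, adjusted p = 1.00), and edgeR called none of the 6 members (0 at an unadjusted p under 0.05, 0 by DESeq2), with 0.0622% of all genes called.

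Replicates 1 to 3 of the cells labelled TrifKO had 2.21, 1.96 and 2.17 CPM of Hdc before LPS. After 2 h they had 6.83, 8.88 and 29.5 CPM, and after 4 h 10.1, 8.43 and 31.1 CPM. The high value at each later time was the library labelled replicate 3, whose Ticam1 and Cpa3 also stood apart. Hdc rose by a log2 fold change of 2.83 ± 0.53 at 2 h (adjusted p = 0.000272) and 2.97 ± 0.54 at 4 h (adjusted p = 0.000147). Without the 3 libraries labelled replicate 3 it rose by 1.91 at 2 h (adjusted p = 0.00916) and 2.15 at 4 h (adjusted p = 0.0034). The 4 h response differed from that of WT by -1.69 ± 0.62 (adjusted p = 0.0562), and by -2.50 without those libraries (adjusted p = 0.00371). It also passed without 1 WT library: high-set cohort 3 at 0 h (-2.06, adjusted p = 0.0151), or low-set cohort 1 (-1.86, adjusted p = 0.0231) or 2 (-1.77, adjusted p = 0.0448) at 4 h. In the libraries labelled TrifKO, 2 of 6 members were called at 2 h and 2 at 4 h, Hdc and Cpa3 at both, with 20.7% and 25.9% of all genes called. For the difference from the WT response edgeR called none at 2 h (1 at an unadjusted p under 0.05, 0 by DESeq2), with 1.38% of all genes called, and none at 4 h (3 at an unadjusted p under 0.05, 3 by DESeq2), with 18.3% called. At 0 h no gene at all was called between the libraries labelled TrifKO, with Ticam1 at 29.8 to 31.7 CPM, and WT cells by edgeR (0% of 14475; 515 at an unadjusted p under 0.05) or by DESeq2 (0).

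**Figure D2:**
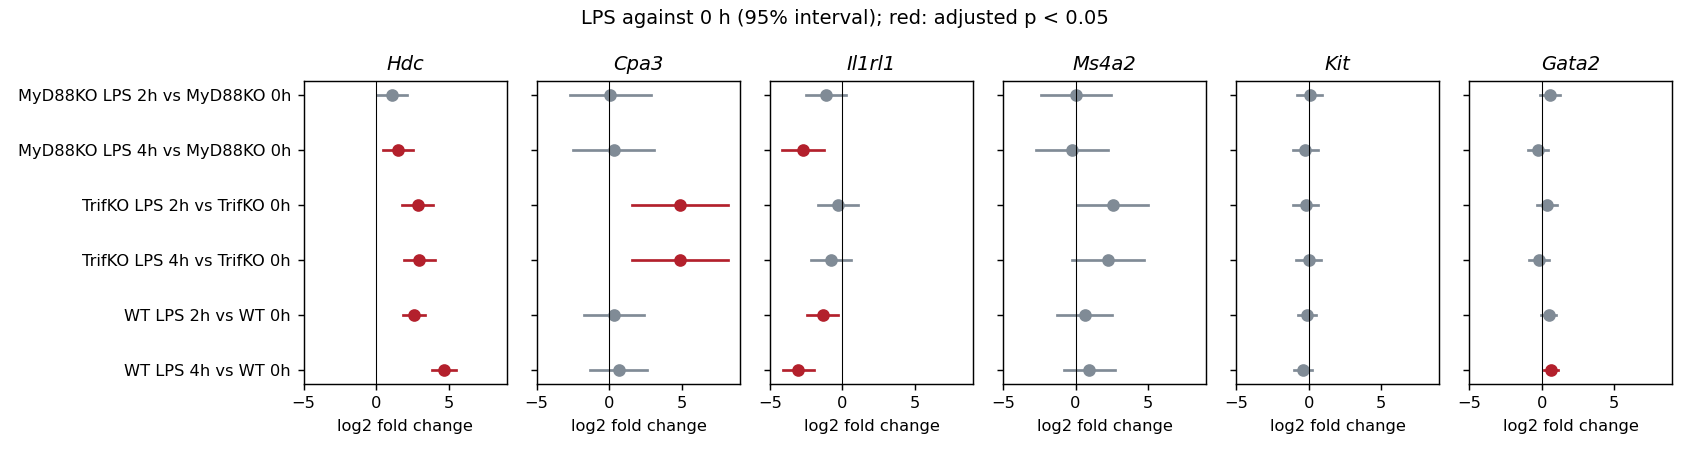
Fitted log2 fold changes with 95% intervals of the 6 tested members after 2 and 4 h of LPS against 0 h in MyD88KO BMDC, in libraries labelled TrifKO and in WT BMDC; red points have an adjusted p below 0.05. The Hdc points lie above 0 in each comparison, with 4.65 in WT at 4 h, and the Cpa3 intervals in WT and MyD88KO cells span 0.

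Cpa3 varied between cultures far more than over time. WT libraries had 1.39 CPM in the lowest, 4.19 in the median and 17.1 in the highest at 0 h. At 2 h the 5 WT libraries had 1.47, 1.80, 4.67, 5.44 and 20.4 CPM, and at 4 h the range was 2.21 to 29.1 CPM with a median of 5.04. The WT groups overlapped at all 3 times. High-set cohort 3 had 17.1, 20.4 and 29.1 CPM at 0, 2 and 4 h, the highest of each time, and high-set cohorts 1 and 2 were the lowest of each time. Along such a matched WT line the highest value was 1.02 to 1.72 times the lowest, whereas libraries of the same time lay 12.3-fold apart at 0 h, 13.9-fold at 2 h and 13.2-fold at 4 h. The 4 h value was above the 0 h value in 6 of 6 matched WT lines, by a median of 1.53-fold. Xist was near 0 in the WT cohort 3 libraries only, so sex and culture cannot be told apart in this spread. Low-set cohort 3, also with Xist near 0, had Cpa3 at 4.65 CPM at 0 h and 6.88 CPM at 4 h.

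The fitted Cpa3 log2 fold change in WT cells was 0.31 ± 1.01 at 2 h (adjusted p = 0.836) and 0.63 ± 0.97 at 4 h (adjusted p = 0.584), with a 95% interval of -1.35 to 2.61 at 4 h. Blocking matched libraries lowered the error to 0.44 and left the 4 h value at 0.54 (adjusted p = 0.275). MyD88KO cohorts 1 to 3 had 7.98, 4.00 and 10.2 CPM before LPS, then 6.71, 4.05 and 12.3 CPM after 2 h, and 7.37, 5.68 and 13.9 CPM after 4 h. Cohort 3, the only one with Xist near 0, was highest and cohort 2 lowest at each time. The log2 fold changes were 0.06 ± 1.36 at 2 h and 0.29 ± 1.36 at 4 h.

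In cells labelled TrifKO, Cpa3 stood at 0.727, 1.34 and 1.31 CPM before LPS, then at 0.868, 1.44 and 96.2 CPM after 2 h, and at 1.25, 0.719 and 95.2 CPM after 4 h. The libraries labelled replicate 3 at 2 and 4 h were the only ones of 47 above 29.1 CPM, while replicate 3 at 0 h had 1.31 CPM. The log2 fold changes of 4.87 ± 1.61 at 2 h (adjusted p = 0.0296) and 4.85 ± 1.61 at 4 h (adjusted p = 0.0255) rested on these libraries. Without the 3 libraries labelled replicate 3 the values were 0.17 (adjusted p = 0.96) and -0.06 (adjusted p = 0.982). The calls were also lost, at 4.61 to 5.01 and adjusted p of 0.0751 to 0.105, without any 1 of the 3 libraries at 0 h. The difference from the WT response at 4 h, 4.22 ± 1.78 (adjusted p = 0.101), passed without the high-set cohort 3 WT library at 4 h (5.12, adjusted p = 0.0476) and with DESeq2 (4.15, adjusted p = 0.0424), and was -0.69 without the cohort 3 libraries labelled TrifKO (adjusted p = 0.832).

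Some markers of neighbouring cell types moved with Cpa3 in the 2 libraries labelled TrifKO replicate 3 at 2 and 4 h. The basophil proteases Mcpt8 and Prss34 stood at 3.60 to 4.03 and 3.68 to 3.80 CPM there, against 0.0186 to 1.45 and 0.0651 to 1.76 CPM in the other 33 libraries. Slc18a2, the vesicular transporter that loads histamine into granules, stood at 2.71 to 3.82 CPM, against 0.886 to 2.42 CPM. The summed 13 mast cell genes had 40.9 to 43.3 CPM, against 5.09 to 14.3 CPM. That sum came mostly from Cyp11a1, a steroid-synthesis enzyme gene that reached 39.3 CPM in BMDC. In all BMDC libraries 10 of the 13 genes stayed below 1 CPM, so the sum is no measure of the mast cell proteases. The eosinophil granule gene Prg2 had 25.5 to 26.2 CPM, against 1.88 to 18.5 CPM, but the summed eosinophil markers, at 52.1 to 61.0 CPM, lay inside the 34.7 to 93.2 CPM of the other 33. Summed neutrophil and granule markers were also higher, at 1409 to 1449 CPM against 507 to 1252 CPM, but the 5 summed basophil markers, at 15.3 to 18.4 CPM against 4.83 to 17.9 CPM, overlapped the other libraries. That sum includes Cd200r3, at 7.50 to 10.1 CPM against 2.002 to 16.9 CPM. The part of these cells in the values labelled TrifKO was not tested.

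Hdc was also set against Cpa3 within each library. Over the 35 libraries Cpa3 had a Pearson correlation of 0.53 with Mcpt8, 0.28 with Prss34 and -0.28 with Cd200r3. Whether Cpa3 follows the share of mast cells and basophils was not tested. Per 100 reads of Cpa3, MyD88KO libraries had 45.3 to 108 reads of Hdc at 0 h, 79.8 to 233 at 2 h and 111 to 203 at 4 h. The libraries labelled TrifKO had 147 to 304 at 0 h, 788, 618 and 30.7 at 2 h and 813, 1174 and 32.6 at 4 h, where the low value was replicate 3 with its high Cpa3. In WT libraries the ratio was 45.7 to 181 at 0 h (median 89.5), 119 to 1698 at 2 h (median 422) and 475 to 4920 at 4 h (median 1633). The WT ranges at 0 and 4 h did not overlap. With log2 CPM of Cpa3 as a covariate, a fit chosen after seeing the data, the Hdc log2 fold change in WT cells at 4 h was 4.61 and the MyD88KO difference from it -3.16.

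**Figure D3:**
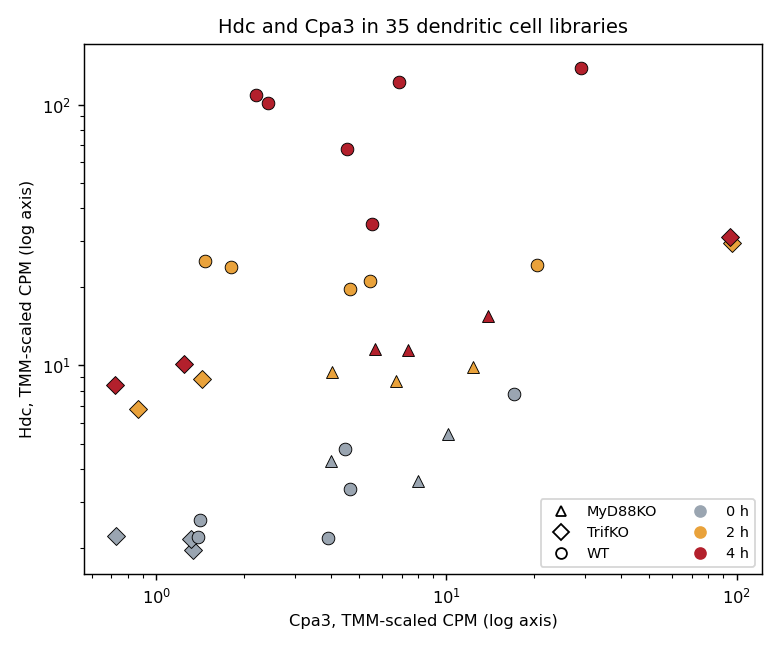
Hdc against Cpa3 in TMM-scaled CPM (both axes log) for the 35 libraries of the stimulation experiment, by labelled genotype and hours of LPS. WT libraries at 4 h lie above 34 CPM of Hdc across their own Cpa3 range of 2.21 to 29.1 CPM. Apart from the rest, 2 libraries labelled TrifKO lie at 95.2 and 96.2 CPM of Cpa3.

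Single WT libraries give examples. High-set cohort 3 had Cpa3 at 29.1 CPM after 4 h of LPS, against 17.1 CPM before it, and Hdc at 138 CPM, against 7.79 CPM. High-set cohort 1 had Cpa3 at 2.43 CPM after 4 h, against 1.42 CPM, and Hdc at 101 CPM, against 2.56 CPM. These 2 libraries, over 10-fold apart in Cpa3, had Hdc of the same order after LPS. Elsewhere high Cpa3 went with high Hdc. At 0 h high-set cohort 3 had the highest Hdc in WT, against 2.18 to 4.78 CPM in the other WT libraries. At 2 and 4 h the library labelled TrifKO replicate 3 was the highest of its group in both genes. Hdc also ranged from 34.7 to 138 CPM between WT libraries at 4 h. Across all 35 libraries Hdc and Cpa3 had a Pearson correlation of 0.38 in log2 CPM, a description of libraries that share cultures and times.

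Il1rl1, the IL-33 receptor gene, fell with LPS in WT and MyD88KO cells. WT libraries had 8.15 CPM in the lowest, 20.1 in the median and 29.8 in the highest at 0 h. At 2 h they had 3.39, 4.67, 8.56, 10.01 and 10.3 CPM, and at 4 h 0.852 to 4.66 CPM with a median of 1.80. The groups at 0 and 4 h did not overlap. The fitted log2 fold change was -1.37 ± 0.51 at 2 h (adjusted p = 0.0283) and -3.04 ± 0.52 at 4 h (adjusted p = 7.13e-06). Matched WT ratios of 4 h over 0 h were 0.0565 to 0.211, below 1 in 6 of 6. The call at 2 h was lost with either set of WT libraries alone (-1.33, adjusted p = 0.208 in the low set, and -1.27, adjusted p = 0.201 in the high set), and without low-set cohort 1 at 0 h (-1.19, adjusted p = 0.0667) or high-set cohort 1 (-1.19, adjusted p = 0.0791) or 2 (-1.24, adjusted p = 0.072) at 2 h, and with WT libraries of a cohort summed (-1.41, adjusted p = 0.0792).

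MyD88KO cells had 45.9, 22.9 and 27.1 CPM of Il1rl1 before LPS, then 18.1, 12.6 and 12.4 CPM after 2 h, and 3.82, 7.004 and 3.77 CPM after 4 h. The 3 times did not overlap. Il1rl1 had a log2 fold change of -1.15 ± 0.67 at 2 h (adjusted p = 0.283), or -1.14 with matched libraries blocked (adjusted p = 0.0484), and -2.72 ± 0.71 at 4 h (adjusted p = 0.00359). The 4 h response differed from that of WT by 0.32 ± 0.82, with a 95% interval of -1.36 to 2.01 and an adjusted p of 0.883. The interval leaves room for differences of over 2-fold in either direction.

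Libraries labelled TrifKO had 10.96, 11.98 and 10.2 CPM of Il1rl1 before LPS, then 4.45, 4.49 and 18.1 CPM after 2 h, and 1.78, 1.65 and 15.99 CPM after 4 h. Replicates 1 and 2 were low at the later times and the library labelled replicate 3 was high. At 4 h the log2 fold change was -0.78 ± 0.67 (adjusted p = 0.435), and -2.74 without the 3 libraries labelled replicate 3 (adjusted p = 0.00435). The difference from the WT response at 4 h was 2.26 ± 0.84 (adjusted p = 0.0581) and passed without either of replicates 1 (2.65, adjusted p = 0.0311) and 2 (2.72, adjusted p = 0.0254) at 4 h, or without WT high-set cohort 1 at 0 h (2.42), low-set cohort 2 at 4 h (2.44) or high-set cohort 3 at 4 h (2.53), and with DESeq2 (2.21, adjusted p = 0.0293). Without the 3 libraries labelled replicate 3 the difference was 0.30 (adjusted p = 0.866). Others of the IL-1 receptor family moved in both directions in WT cells at 4 h, where 65.1% of all genes were called. Of 8 genes tested 2 were higher and 4 lower, with a median log2 fold change of -0.55 against -0.07 over all genes. Il33, the ligand of ST2, rose by 4.22 ± 0.66, while Il18r1, a receptor chain for IL-18, had -2.84 ± 0.34 and the inhibitory receptor Sigirr -2.31 ± 0.20.

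Gata2 rose slightly in WT cells. MyD88KO cells averaged 22.4 ± 3.88, 33.8 ± 10.2 and 19.1 ± 3.23 CPM at 0, 2 and 4 h (SD, n = 3 each), and the libraries labelled TrifKO 22.02 ± 1.15, 28.9 ± 4.22 and 19.5 ± 1.20 CPM. The 2 h level of MyD88KO cells was above the 0 h level in 3 of 3 matched lines, by 1.32- to 1.69-fold, with a log2 fold change of 0.59 ± 0.34 (adjusted p = 0.269), or 0.57 with matched libraries blocked (adjusted p = 0.00555). In both genotypes as labelled, the 4 h mean was below the 0 h mean, without passing the test. Its WT level was 11.8 to 24.99 CPM (18.8 ± 5.84) at 0 h, 26.5 ± 8.64 at 2 h and 15.2 to 45.8 CPM (29.2 ± 12.7) at 4 h (SD, n = 6, 5 and 6). The WT groups overlapped, but the matched ratio of 4 h over 0 h was above 1 in 6 of 6 lines, from 1.11 to 2.02. In WT cells it had a log2 fold change of 0.50 ± 0.25 at 2 h (adjusted p = 0.107), or 0.45 with matched libraries blocked (adjusted p = 0.00197), and 0.63 ± 0.24 at 4 h (adjusted p = 0.0217). The call at 4 h was lost with low-set WT libraries alone (0.38, adjusted p = 0.242), with only WT at 0 and 4 h in the fit (0.63, adjusted p = 0.0698), and without high-set cohort 3 at 0 h (0.55, adjusted p = 0.0534) or high-set cohort 1 (0.48, adjusted p = 0.079) or 2 (0.52, adjusted p = 0.0641) at 4 h. The rise at 2 h passed without high-set cohort 3 at 2 h (0.63, adjusted p = 0.0429) and with WT libraries of a cohort summed (0.52, adjusted p = 0.0182). The 4 h MyD88KO response differed from that of WT by -0.86 ± 0.41 (adjusted p = 0.235), or -0.80 with matched libraries blocked (adjusted p = 0.00414).

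Kit was not called in any LPS comparison. MyD88KO cells averaged 37.1 ± 17.8, 38.9 ± 19.2 and 31.8 ± 10.03 CPM at 0, 2 and 4 h (SD, n = 3 each) and the libraries labelled TrifKO 33.96 ± 4.51, 29.7 ± 4.69 and 34.1 ± 7.77 CPM. WT cells averaged 44.04 ± 14.4, 40.8 ± 16.4 and 34.4 ± 15.6 CPM (SD, n = 6, 5 and 6). All of these ranges overlapped. In WT cells the log2 fold change at 4 h was -0.35 ± 0.30 (adjusted p = 0.311), with 5 of 6 matched lines lower, and -0.40 with matched libraries blocked (adjusted p = 0.0297). The libraries labelled TrifKO replicate 3, with Cpa3 at 95.2 and 96.2 CPM, had Kit at 43.1 CPM at 4 h and 34.03 CPM at 2 h, within the WT range. Of 13 other genes of Kit signalling tested, 8 were higher and 2 lower in WT cells at 4 h (median log2 fold change 0.79). In that comparison 65.1% of all genes were called, so the count does not set Kit signalling apart. Stat5a (2.33 ± 0.20) and Mitf (1.99 ± 0.22), a mast cell and melanocyte factor, were higher and the adaptor gene Dok2 lower (-1.61 ± 0.22).

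Both IgE receptor chains were near the detection limit. Ms4a2 had 0 to 61 reads in the 47 BMDC libraries and was at 0 in 7 of them. Its highest values were 1.25 and 0.868 CPM in the libraries labelled TrifKO replicate 3 at 2 and 4 h, against at most 0.333 CPM in WT. The log2 fold change of Ms4a2 was 0.95 ± 0.87 in WT cells at 4 h (adjusted p = 0.346). Fcer1a had 0 to 14 reads, was at 0 in 18 of 47 libraries and reached at most 0.182 CPM, too few for a test. Unlike Ms4a2, it had 0 reads in the libraries labelled TrifKO replicate 3 at 2 and 4 h.

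Group levels put in order show how far the members can rank cultures. Over the 13 BMDC groups, the ranges of neighbours in the order of means overlapped in 10 of 12 steps for Hdc, 11 for Il1rl1 and Gata2, and all 12 for Cpa3, Ms4a2, Fcer1a and Kit. For Hdc the breaks lay above MyD88KO at 2 h and above WT at 2 h, which left WT at 4 h alone at the top.

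The markers that define mast cells and basophils were sparse in BMDC. Of 13 mast cell genes in the table, Mcpt4 was at 0 in all 47 BMDC libraries, Mcpt2 was at 0 in 45 and Tpsab1 in 44, and 10 never reached 1 CPM; Cma1 reached 1.28, Tpsb2 0.681 and Mcpt1 0.487 CPM. The list sum came mostly from Cyp11a1, a steroid-synthesis enzyme, at 1.70 to 39.3 CPM. In WT cells the summed mast cell genes stood at 5.50 to 13.8 CPM at 0 h, 5.57 to 13.1 CPM at 2 h and 5.09 to 14.3 CPM at 4 h. The summed 5 basophil markers stood at 4.83 to 15.1, 5.22 to 14.7 and 5.54 to 11.8 CPM at the same times. Both sums overlapped between the 3 times, and the Hdc ranges did not. The basophil sum came mostly from Cd200r3, with a WT mean of 8.82 CPM at 0 h and 4.91 CPM at 4 h. Prss34 had WT means of 0.628 and 1.13 CPM at these times, so the sum can hide opposite changes. With the sum of the other mast cell and basophil markers as a covariate, the Hdc log2 fold change in WT cells at 4 h was 4.74. Whether these sums follow the share of mast cells and basophils was not tested.

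Of the 5 mast cell genes tested in WT cells at 4 h, none was called by edgeR and none had an unadjusted p under 0.05 (Cyp11a1 -0.01, Slc18a2 -0.49), with a median log2 fold change of 0.59. Of 4 basophil markers tested, 1 was higher: Il13, a type 2 cytokine, had 1.73 CPM at 4 h against 0.131 CPM at 0 h (log2 fold change 3.66 ± 0.71). Prss34 (0.83) and Cd200r3 (-0.84, adjusted p = 0.053) were not called. None of 11 neutrophil and granule markers was called (1 had an unadjusted p under 0.05), and of 8 eosinophil markers 2 were higher (Ccr3 1.76, Il5ra 1.43) and 1 lower (Siglecf -0.98). Of 10 dendritic cell markers 6 were higher, such as Xcr1 (3.64), and 2 lower, Clec9a and Cd209a (-2.01). Of 10 macrophage markers 4 were higher, with Marco (2.82) and Fcgr1 (2.25), and 3 lower, with Cd163 (-2.93). None of 3 erythroid and megakaryocyte genes was called by edgeR or had an unadjusted p under 0.05. Beside these counts, 65.1% of all genes were called in this comparison.

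Around Hdc, 6 other genes of histamine handling were tested in WT cells at 4 h, and 1 was higher and 3 lower (median log2 fold change -0.93). The histamine receptor gene Hrh2 rose by 2.25 ± 0.29, while Hrh1 had -1.41 ± 0.19 and Aoc1, which breaks histamine down, -1.98 ± 0.32. Of 17 genes that signal below the IgE receptor, 7 were higher and 7 lower (median 0.14). The adaptor gene Lcp2 rose by 1.91 ± 0.21, whereas Inpp5d (-2.26 ± 0.19), the inhibitory phosphatase SHIP1, and Grap2 (-1.90 ± 0.40) fell. Of 11 partners of GATA2 and other progenitor factors, 3 were higher and 6 lower (median -1.01), among them Cebpa (-2.52 ± 0.25), Lyl1 (-1.94 ± 0.28) and Meis1 (-1.70 ± 0.27). These genes are also transcribed in other myeloid cells, and 65.1% of all genes were called in this comparison.

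In unstimulated cells of the Suv39h1 and Ifnar experiment, Hdc, Cpa3 and Gata2 followed the cohort. Cohort 3 had 0.931 to 2.31 CPM of Hdc, against 4.90 to 12.9 CPM in cohorts 1 and 2. Its Cpa3 was 0.419 to 1.05 CPM, against 1.21 to 4.53 CPM, and its Gata2 16.9 to 31.5 CPM, against 44.2 to 91.8 CPM. For each of these 3 genes cohort 3 lay below both other cohorts in every genotype. Kit (25.9 to 31.6 CPM against 19.98 to 39.9 CPM) and Il1rl1 (12.6 to 31.8 CPM against 16.3 to 30.0 CPM) overlapped between cohorts. Hdc and Cpa3 had a Pearson correlation of 0.92 over the 12 libraries, Hdc and Gata2 0.97, and Cpa3 and Gata2 0.89, in libraries that share cohorts.

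Genotype differences were smaller than the spread between cohorts for most members. Cpa3 had 4.13, 4.53 and 0.754 CPM in Suv39h1KO cells of cohorts 1 to 3, against 1.98, 1.57 and 0.419 CPM in WT cells. It was higher in 3 of 3 cohorts, by 1.80- to 2.89-fold, but the groups overlapped (log2 fold change 1.23 ± 0.73, adjusted p = 1.00). Gata2 had 60.3, 91.8 and 31.5 CPM, against 44.2, 49.3 and 16.9 CPM, with a log2 fold change of 0.73 ± 0.55 (adjusted p = 1.00), or 0.75 with the cohort as a block (adjusted p = 0.0158). Hdc had 6.59, 12.9 and 2.31 CPM, against 5.33, 6.20 and 0.931 CPM, with a log2 fold change of 0.79 ± 0.82 (adjusted p = 1.00). All 3 were higher in Suv39h1KO in each cohort.

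Kit moved the other way and its groups did not overlap: 19.98, 26.2 and 25.9 CPM in Suv39h1KO cells, against 34.1, 39.9 and 31.6 CPM in WT cells. Its log2 fold change was -0.55 ± 0.15 (adjusted p = 0.421), and -0.56 with the cohort as a block (adjusted p = 0.0322). With the interferon receptor also missing, Kit had 20.3, 26.6 and 28.2 CPM in Suv39h1KO IfnarKO cells, against 29.9, 34.3 and 30.1 CPM in IfnarKO cells (log2 fold change -0.33 ± 0.15, adjusted p = 0.861), lower in 3 of 3 cohorts. Cpa3 had 1.78, 4.28 and 1.05 CPM, against 1.21, 1.58 and 0.542 CPM (log2 fold change 1.08 ± 0.73, adjusted p = 0.944). Without the block edgeR called none of the 6 members tested in any of the 4 comparisons, and DESeq2 called 0; only Kit for Suv39h1KO against WT and Ms4a2 for Suv39h1KO IfnarKO against IfnarKO had an unadjusted p under 0.05. The background was 0.209% of all genes called for Suv39h1KO against WT, 0.222% for Suv39h1KO IfnarKO against IfnarKO, 0.125% for IfnarKO against WT and 0.16% for Suv39h1KO IfnarKO against Suv39h1KO. With log2 CPM of Cpa3 as a covariate, a fit chosen after seeing the data, the Suv39h1KO log2 fold changes of Hdc and Gata2 were -0.39 and -0.0032. Cpa3 was itself higher in Suv39h1KO cells in 3 of 3 cohorts, so this fit cannot separate the genotype from Cpa3.

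**Figure D4:**
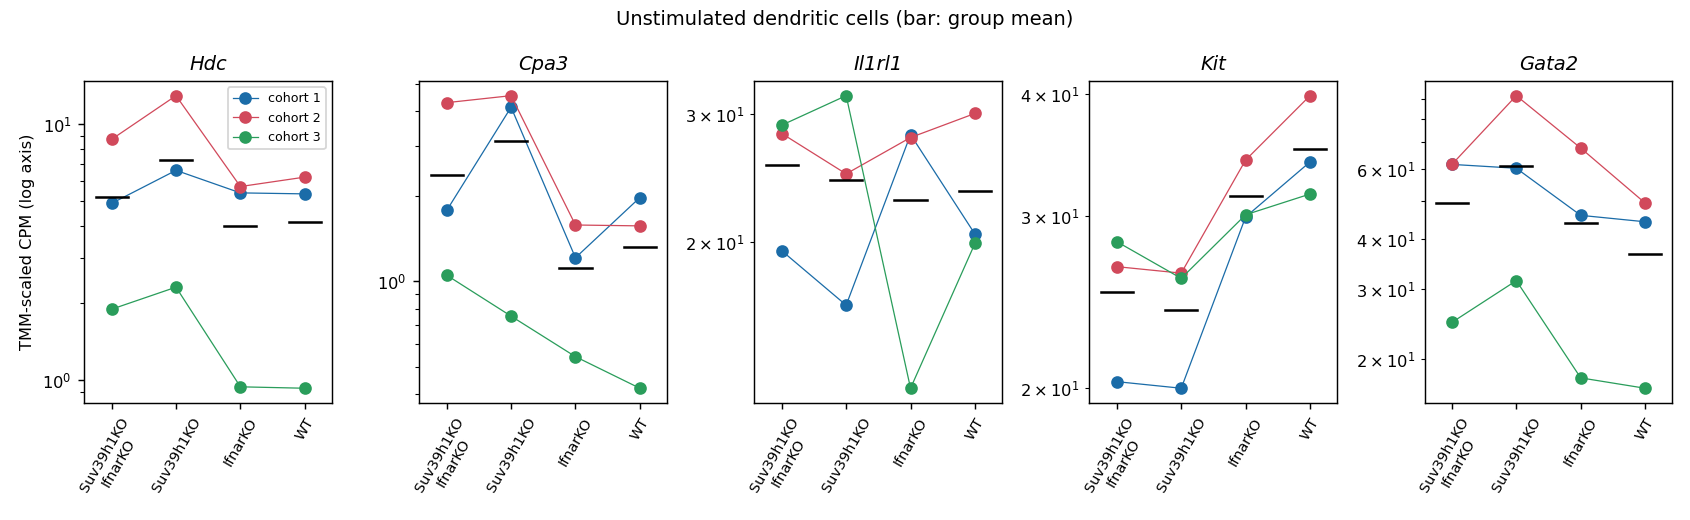
TMM-scaled CPM (log axis) of 5 members in unstimulated Suv39h1KO IfnarKO, Suv39h1KO, IfnarKO and WT BMDC, with lines joining libraries of a cohort and bars at the group mean. Cohort 3 lies below the others for Hdc, Cpa3 and Gata2 in all genotypes, and Kit is at or below 28.2 CPM in all 6 Suv39h1KO libraries.

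RAW264.7 cells gave the same transcripts in a cell line with Cpa3 and the IgE receptor chains at or near 0. Cpa3 had 1 read in 1 of 18 libraries and none in 17, Ms4a2, Fcer1a and Mcpt8 had none in 18, and Kit had none in 15. A count of 0 allows up to 3 reads, or 0.0390 to 0.0813 CPM in these libraries. The other 3 members were measured. Hdc in control-guide cells had 7.54, 8.44 and 11.6 CPM at 2 h of LPS, against 0.133, 0.129 and 0.110 CPM at 0 h, with no overlap. Hdc had a log2 fold change of 6.18 ± 0.47 (adjusted p = 6.45e-09), 72.3-fold. Cells with guide 1 had 5.08, 8.63 and 4.65 CPM, against 0.140, 0.141 and 0.149 CPM (5.40 ± 0.46, adjusted p = 2.85e-08). Cells with guide 2 had 7.66, 14.4 and 6.02 CPM, against 0.0246, 0.159 and 0.177 CPM (6.40 ± 0.46, adjusted p = 3.9e-09). Hdc thus rose after LPS in each guide group. In the same libraries the basophil markers summed to at most 0.551 CPM and the mast cell genes to 1.92 to 3.92 CPM, mostly Slc18a2.

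Il1rl1 rose in RAW264.7, opposite in sign to BMDC at the same time. Control-guide cells had 88.6, 87.7 and 88.8 CPM at 2 h, against 38.02, 40.6 and 40.8 CPM at 0 h (log2 fold change 1.15 ± 0.08, adjusted p = 2.92e-09). Guide 1 gave 98.9 to 108 CPM, against 41.3 to 44.5 CPM, and guide 2 101 to 136 CPM, against 44.9 to 49.8 CPM. The difference from BMDC was not tested, since line and experiment cannot be told apart. Gata2 averaged 2.09 ± 0.38 CPM at 2 h, against 0.965 ± 0.026 CPM at 0 h, in control-guide cells (SD, n = 3 each; log2 fold change 1.11 ± 0.25, adjusted p = 0.00131). With guide 2 it averaged 1.96 ± 0.47 CPM, against 1.02 ± 0.24 CPM (0.98 ± 0.25, adjusted p = 0.00323), and with guide 1 2.08 ± 0.67 CPM, against 1.66 ± 0.11 CPM (0.33 ± 0.24, adjusted p = 0.267). Of the 3 members tested, 3 were called with the control guide, 2 with guide 1 and 3 with guide 2, where 51.6%, 51.3% and 50.8% of 13078 genes were called.

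**Figure D5:**
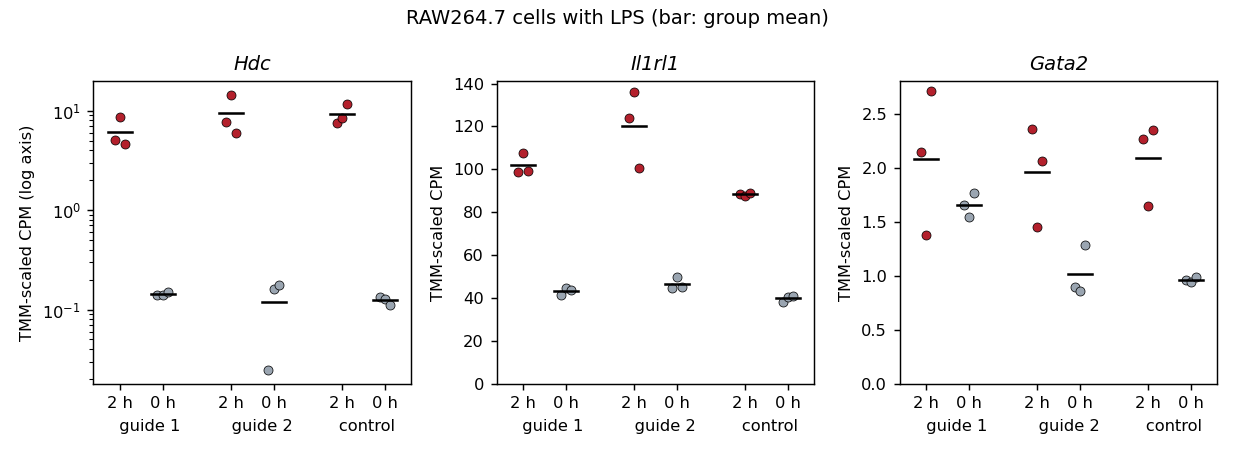
TMM-scaled CPM of Hdc (log axis), Il1rl1 and Gata2 in RAW264.7 libraries at 2 and 0 h of LPS for guide 1, guide 2 and the control guide. Every 2 h library of Hdc and Il1rl1 lies above every 0 h library, and Gata2 stays at or below 2.71 CPM.

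Among 11331 genes, those whose log2 CPM most resembled each member over the 35 libraries of the stimulation experiment differed between members. For Hdc they were Cd86 (Pearson r 0.97), Ripk2 (0.96) and Hnrnph2 (0.95), and over the 12 unstimulated libraries Cd86 also had an r of 0.92 with Hdc. For Cpa3 they were Itga2b (0.92), Ms4a3 (0.87) and Ppm1j (0.87), and for Ms4a2 Ctsg (0.76), Serpinb1a (0.67) and Elane (0.65). For Il1rl1 they were St6gal1 (0.97), Mical1 (0.96) and Add3 (0.95), for Kit Stxbp6 (0.80), Adam23 (0.79) and Dpysl5 (0.75), and for Gata2 Rgcc (0.73), Jun (0.70) and Men1 (0.69). Of these 18 genes none was listed under 2 members. The correlations describe libraries that share cultures, times and genotypes.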

How the data were processed

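PolyA-selected RNA was sequenced from stranded libraries, per the labels' protocols. The authors deposited raw read counts per gene, and the submitters' processing notes name STAR, HOMER, DESeq2 and mm10, with no versions given; whether counting used strand is not given in the sources used here. A table of transposable element counts was not used. Counts of each experiment went into a separate edgeR 4.0.16 model (R 4.3.3) with TMM scaling, filterByExpr (minimum count 10), group means and the quasi-likelihood test, with Benjamini-Hochberg adjustment over all genes tested. CPM values are TMM-scaled. The members and the 13 other gene lists were chosen with earlier results of these data known. The result of 1 of these lists is not reported here. All members are named in each comparison; of each other list, up to 3 called genes with the largest change and up to 2 uncalled ones with the highest mean in WT at 4 h, and the 3 most similar genes per member. No 2 libraries of a group agreed within sampling noise (88 pairs).

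The models reported have no replicate block. Same-numbered libraries deviated together in every pair within WT sets (lowest r 0.137), within MyD88KO (0.484) and between genotypes of the unstimulated experiment (0.268), so blocked values are given beside these results where they change a call. The numbers did not pair libraries labelled TrifKO (-0.264). In RAW264.7 same-numbered libraries deviated together only weakly (lowest r 0.00341, mean 0.123), and the block left the member counts there unchanged. The series states biological replicates but not separate animals, and the WT libraries that share a cohort number may share a source, so p-values measure the spread between these libraries. Alternatives were DESeq2 1.42.0, its size factors, no filter, other sample sets, blocks, covariates and leaving out libraries. Read intervals and limits cover counting error only. The fitting was tested on simulated data.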

Additional observations from a re-analysis of the deposited data

Results flagged for a closer look

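Cpa3 had 1 library far above the rest in each WT group of the stimulation experiment: 17.1 CPM at 0 h, 20.4 CPM at 2 h and 29.1 CPM at 4 h, by Dixon's criterion at 95%. All 3 were the high-set cohort 3 libraries. The criterion was applied to 21 groups of values, all from WT cells of the stimulation experiment, and chance marks about 1 in 20. Groups of 3 libraries, such as those labelled TrifKO, were not screened. Without these libraries the WT log2 fold change of Hdc was 2.89 at 2 h (adjusted p = 1.49e-06) and 4.85 at 4 h (adjusted p = 1.94e-10).

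The 4 h response of Hdc differed between MyD88KO and WT cells by -3.13 on the log2 scale, by the interaction test given above. All MyD88KO libraries were of the low set. With low-set WT libraries alone the same test gave -2.91 and did not pass (adjusted p = 0.0567).

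The 2 h change of Il1rl1 went in opposite directions, a log2 fold change of 1.15 in control-guide RAW264.7 cells and -1.37 in WT BMDC. The difference was not tested.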

How the results depend on the processing

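Of 2239 single-gene values recomputed under the alternatives, 2039 kept their direction and side of the threshold, 45 passed it newly, 32 fell short of it, 121 values that no fit called changed sign and 2 called values reversed. Both reversals were Cpa3 in the libraries labelled TrifKO at 4 h, at -0.063 without the 3 libraries labelled replicate 3 and within the range of -0.19 to 5.42 over leaving out 1 library at a time. The rise of Hdc in WT cells passed the test in all alternatives run, at 4.46 to 5.00 for 4 h and 2.47 to 2.93 for 2 h.

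Counts of members called changed as follows, and the causes were not tested. Except for DESeq2, the share of all genes called was not recorded under these alternatives. A changed count therefore does not set the members apart from other genes. Blocking matched libraries (the replicate block of genotype, set and cohort) gave 3 instead of 0 for MyD88KO at 2 h, 1 instead of 0 for its difference from WT at 2 h, 2 instead of 1 for that at 4 h, and 2 instead of 0 for the difference of the libraries labelled TrifKO (TrifKO here) at 4 h; the cohort replicate block gave 2 instead of 0 for Suv39h1KO against WT and 1 instead of 0 for the TrifKO difference at 4 h. Beside the blocked values given with the results, the block changed TrifKO calls (Gata2 at 2 h 0.39, adjusted p = 0.0482, and its difference at 4 h -0.75, adjusted p = 0.00309; Il1rl1 at 4 h -1.63, adjusted p = 0.0088; Hdc difference at 4 h -1.98, adjusted p = 0.00191; Cpa3 1.83, adjusted p = 0.0838 at 2 h and 1.76, adjusted p = 0.0909 at 4 h), whose numbers do not pair. With Cpa3 as a covariate the count was 2 for MyD88KO at 2 h, 1 for its difference from WT at 2 h and 1 for the TrifKO difference at 4 h. With only the groups compared it was 1 for MyD88KO at 2 h, 1 for TrifKO at 2 h and at 4 h, and 2 instead of 3 for WT at 4 h. With WT libraries of a cohort summed it was 1 for MyD88KO at 2 h, 1 for the TrifKO difference at 4 h and 1 for WT 4 h against 2 h. With the low set of WT alone it was 0 for the MyD88KO difference at 4 h, and with either set alone 1 for WT at 2 h and 1 for WT 4 h against 2 h. With the marker sum as a covariate it was 1 for TrifKO at 2 h, at 4 h and for its difference from WT at 4 h. The last count was 3 by DESeq2, 1 with its size factors, 2 without the high-set cohort 3 WT libraries and 1 without the libraries labelled TrifKO replicate 3, which also left 1 for TrifKO at 2 h. Leaving out 1 library at a time gave 1 to 2 for MyD88KO at 4 h and for TrifKO at 2 and 4 h, 1 to 3 for WT at 2 h and 0 to 2 for the TrifKO difference at 4 h. DESeq2 size factors shifted the median of all genes by at most 0.0606. Depth limits Ms4a2 and Fcer1a, with at most 61 and 14 reads.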
